A study of Mus musculus with 2 samples.

Results

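The genes encoding myosin heavy chains were examined for peaks of HIRA, a histone chaperone, in the embryonic mouse heart. The members were 10 named genes of the 55413 genes in GENCODE M21 (mouse build mm10): Myh6 and Myh7 (the cardiac pair), Myh1, Myh2, Myh3, Myh4, Myh8 and Myh13 (the skeletal cluster), Myh10 and Myh7b. They were chosen by name, and every HIRA peak in a gene body or within 50 kb of it was taken, which gave 6 of the 6624 peaks in the list. The chromatin came from 30 hearts of wild type CD1 embryos at E12.5, pooled from 2 dams and cross-linked with EGS and then formaldehyde. There was 1 HIRA ChIP library and 1 input library, and no genetically altered or treated group. The peak list held positions alone, with no height, score or read depth, so the strength of a peak and the depth behind it were unknown. With 1 library there was no replicate, and the values below are descriptions without a test across samples. A list of positions carries no expression values, so the labelled tissue could not be checked against marker genes.

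Myosin heavy chains are the motor subunits of the myosins that pull on actin filaments. Myh6 encodes the alpha chain and Myh7 the beta chain of cardiac muscle, and both lie head to tail on the same strand, with the antisense long non-coding RNA gene Mhrt starting between them. The skeletal cluster encodes the embryonic (Myh3), perinatal (Myh8), adult fast (Myh2, Myh1, Myh4) and extraocular (Myh13) chains, Myh10 encodes a non-muscle chain, and Myh7b encodes a slow-type chain and hosts the microRNA gene Mir499. HIRA deposits a histone H3 variant outside DNA replication.

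The 6 peaks lay at only the cardiac pair and Myh10, with 3 peaks at each. The sequences of the 3 peaks at the cardiac pair are shown because they shared a feature that most of the list lacked, namely that none of their 32-base words occurred again in the genome. All sequences are the plus strand of the reference genome (GRCm38, RefSeq), not reads from the CD1 hearts. Capitals in cardiac peak 1 (chr14:54968420-54968601) mark GATAA, the core bound by GATA factors, and GGAATG, which is CATTCC on the other strand, the core bound by TEAD factors. Capitals in cardiac peak 2 (chr14:54997162-54997325) mark GAAAGAGA, which is 1 mismatch from the GAGAGAGA repeat. Cardiac peak 3 (chr14:55004714-55005105) held none of the words searched, and its central 300 bases (chr14:55004760-55005059) are given.
cardiac peak 1: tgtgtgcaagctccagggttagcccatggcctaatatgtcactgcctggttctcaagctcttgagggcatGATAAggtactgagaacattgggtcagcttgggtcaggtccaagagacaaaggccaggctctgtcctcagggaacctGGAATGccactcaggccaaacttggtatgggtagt
cardiac peak 2: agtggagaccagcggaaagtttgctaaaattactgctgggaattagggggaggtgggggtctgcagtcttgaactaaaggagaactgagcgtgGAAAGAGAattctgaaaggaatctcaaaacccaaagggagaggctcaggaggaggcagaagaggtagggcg
cardiac peak 3: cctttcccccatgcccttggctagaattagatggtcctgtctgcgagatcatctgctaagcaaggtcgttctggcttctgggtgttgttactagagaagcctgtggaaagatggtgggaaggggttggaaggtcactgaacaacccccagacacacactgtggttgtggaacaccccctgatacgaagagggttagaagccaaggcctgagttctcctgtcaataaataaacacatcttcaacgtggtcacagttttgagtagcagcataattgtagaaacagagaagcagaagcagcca

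The 3 peaks at Myh10 are shown for the contrast, and capitals mark every base covered by a 32-base word found more than once in the genome on either strand. Myh10 peak 1 (chr11:68664324-68664482) opened with a run of AAGG repeats. Myh10 peak 2 (chr11:68685446-68685662) was in capitals over nearly its whole length. Myh10 peak 3 (chr11:68837813-68837987) ended in a long CA repeat.
Myh10 peak 1: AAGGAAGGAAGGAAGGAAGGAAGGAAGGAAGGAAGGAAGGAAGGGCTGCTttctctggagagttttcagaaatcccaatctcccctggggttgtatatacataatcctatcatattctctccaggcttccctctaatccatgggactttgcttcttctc
Myh10 peak 2: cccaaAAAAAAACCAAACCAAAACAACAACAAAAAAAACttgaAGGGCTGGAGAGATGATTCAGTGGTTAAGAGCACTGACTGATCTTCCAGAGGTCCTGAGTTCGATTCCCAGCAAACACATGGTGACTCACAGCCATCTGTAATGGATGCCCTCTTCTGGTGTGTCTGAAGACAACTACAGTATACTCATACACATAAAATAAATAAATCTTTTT
Myh10 peak 3: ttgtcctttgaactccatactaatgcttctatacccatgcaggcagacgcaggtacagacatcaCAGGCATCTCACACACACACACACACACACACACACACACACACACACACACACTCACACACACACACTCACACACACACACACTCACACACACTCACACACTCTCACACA

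None of the 10 genes held a peak in its body. A peak in the body was found for 4.53% of all genes, 8.90% of the 21938 protein-coding genes and 11.0% of the 7612 protein-coding genes of like length (22.4 to 125 kb, the range of the members). Myh6 and Myh7 had a peak within 5 kb, which is 2 of 10, against 6.99% of all genes, 11.1% of protein-coding genes and 13.1% of those of like length. Within 50 kb the count was 3 of 10 (Myh6, Myh7 and Myh10), against 26.0%, 29.4% and 30.9%, so the share of the members with a nearby peak was close to the background. Each of these 3 genes had 3 peaks within 50 kb. Of the background, 0.987% of all genes, 1.58% of protein-coding genes and 1.13% of those of like length had 3 or more. Myh6 and Myh7 are neighbours and share the same 3 peaks, so they do not count as separate observations, and the rule of 3 or more was set after the peaks were seen. With only the 3233 peaks wider than the median, 1 peak was left at the cardiac pair and 1 at Myh10, and no member had one within 5 kb.

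**Figure D1:**
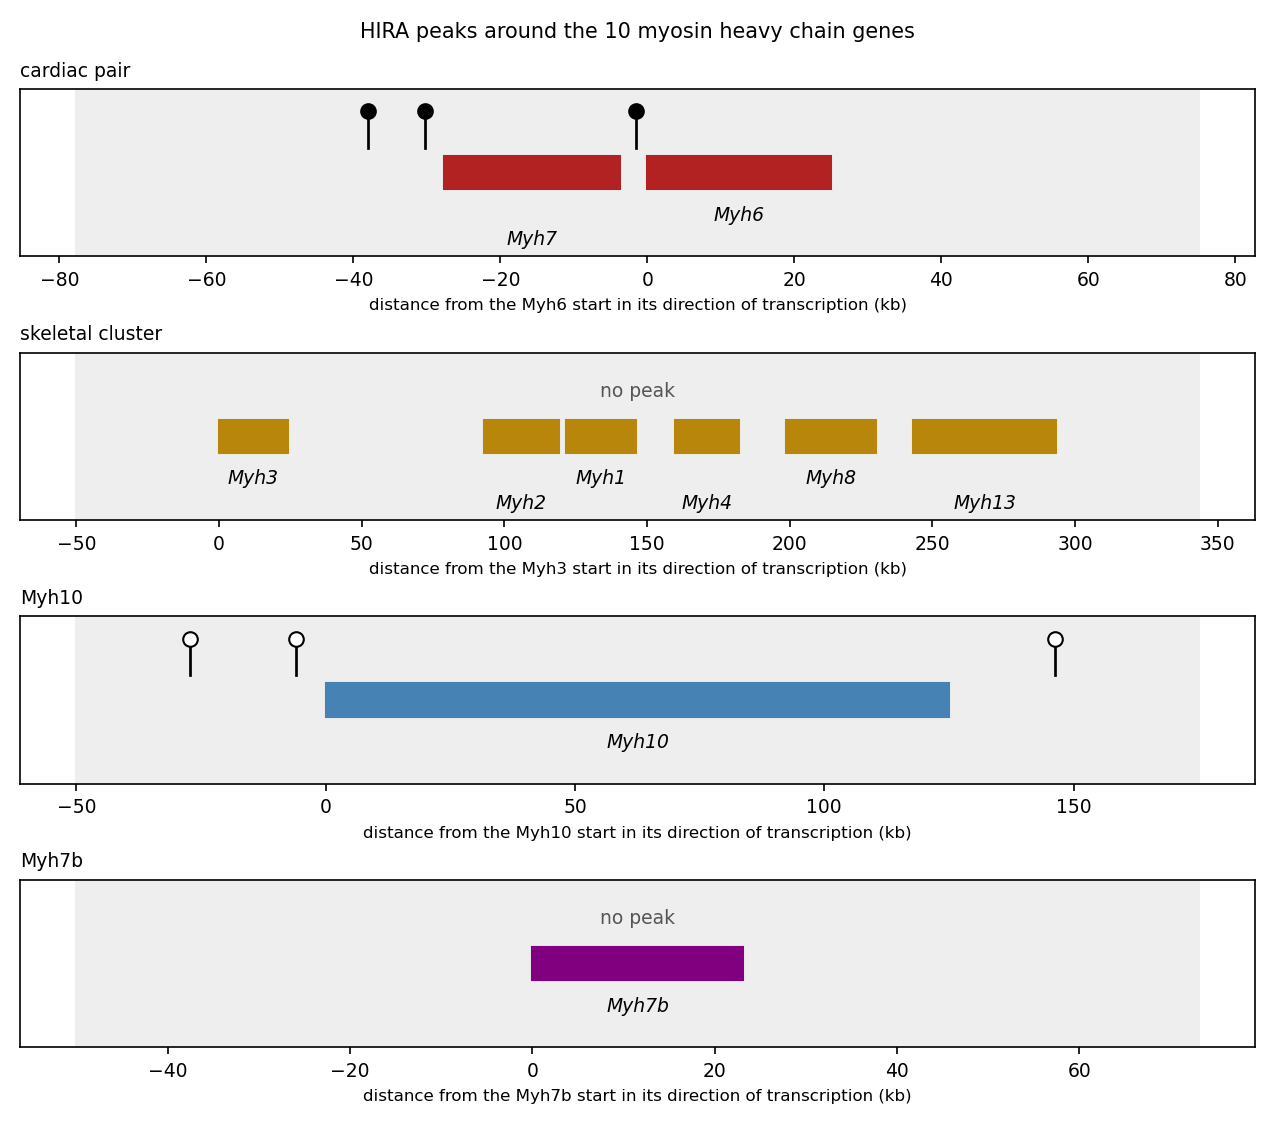
Maps of the 4 loci, with position in kb from the start of the named gene along its direction of transcription, so that every gene reads from left to right, each map on its own scale. Boxes are gene bodies, grey marks the body plus 50 kb on either side, and pins are HIRA peaks, filled where no 32-base word of the peak was multi-copy and open where some were. The 3 filled pins lie outside the bodies of Myh6 and Myh7, the 3 open pins lie outside the body of Myh10, and the other maps hold no peak.

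Myh6 (chr14:54941921-54966927, minus strand) is 25.0 kb long. Its nearest peak was cardiac peak 1, which lay 1.49 kb before its start. Of protein-coding genes, 9.58% had a peak as close or closer. Myh7 (chr14:54970684-54994626, minus strand) is 23.9 kb long. The same peak lay 2.08 kb past its end, and 9.90% of protein-coding genes had a peak as close. Cardiac peak 1 thus fell inside the 3756 bases that separate the pair. It lay 77 bases from the start of Mhrt (chr14:54968678-54974349), which is transcribed against Myh7, and its midpoint was 168 bases from that start. By the rule that a midpoint within 1 kb of a start is a promoter, this was a promoter peak in both GENCODE and RefSeq, and it was intergenic when only protein-coding genes were considered. It was 182 bases wide, with a GC content of 52.7%, and no base of it was soft-masked as repeat, which held for 7.61% of all peaks.

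Cardiac peak 2 lay 2.54 kb before the start of Myh7 and 30.2 kb before that of Myh6. It was 164 bases wide, had a GC content of 50.6% and was soft-masked over 26.2% of its bases. Cardiac peak 3 lay 10.1 kb before the start of Myh7 and 37.8 kb before that of Myh6. The next protein-coding gene on its other side, Ngdn, began 10.3 kb away, so the peak was about as near to Ngdn as to Myh7. Its width of 392 bases ranked 155 in the list, its GC content was 53.3% and 17.9% of its bases were soft-masked. GENCODE places both peaks between genes. RefSeq extends the non-coding gene Gm31251, on the plus strand, to 55005006 and so puts both in its exonic sequence, with an exon over cardiac peak 2 in 7 of its 8 transcripts and over cardiac peak 3 in all 8. Cardiac peak 3 runs past the end of that gene.

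The 3 cardiac peaks were close together. Their midpoints were 28.7 and 7.67 kb apart and the trio spanned 36.7 kb, while the next peaks on either side were 549 and 478 kb away. Of the 6582 runs of 3 neighbouring peaks in the list, 124 (1.88%) were as tight. Of these 124 runs, 1 had no multi-copy word in any of its 3 peaks, and that was the run at Myh6 and Myh7. Among the 619 runs that spanned at most 174 kb, the span of the peaks at Myh10, 5 had none. The share over all 6582 runs is not given here. The absence of multi-copy words was looked for after the sequences were seen.

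Of the words searched on both strands, GATAA was found in 22.6% of all peaks and in 20.4% of the 5365 peaks of 159 to 217 bases, the widths of the 5 narrower member peaks. CATTCC was found in 9.16% and 8.72%. Cardiac peak 1 held each once, at chr14:54968490-54968494 (plus strand) and chr14:54968567-54968572 (minus strand), and the matches did not overlap. No other member peak held either. AAGTG, a core bound by NKX2 factors, was found in 33.2% of all peaks, and AGGTGT, a T-box core, in 7.73%. The MEF2 motif was found in 2.70% and the SRF motif in 0.679%. None of these 4 was found in any of the 6 member peaks. Among the 122 peaks of 353 to 431 bases, near the width of cardiac peak 3, AAGTG was found in 59.0% and GATAA in 41.0%. In the same 122 peaks, AGGTGT was found in 12.3%, CATTCC in 11.5% and GAGAGAGA in 4.10%. The MEF2 motif was found there in 2.46% and the SRF motif in 0.820%. The GAGAGAGA repeat was held by 16.0% of all peaks and by 0 of 6 member peaks. With 1 mismatch allowed it was held by cardiac peak 2 alone, against 35.7% of all peaks. A match is a description of the sequence and does not show a bound factor.

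Myh10 (chr11:68691559-68816632, plus strand) is 125 kb long, the longest of the 10 genes. Its nearest peak was Myh10 peak 2, which lay 5.90 kb before its start, and 11.6% of protein-coding genes had a peak as close. That peak was 217 bases wide, was soft-masked over 100% of its bases, and 56.5% of its 32-base words were multi-copy, with up to 344 copies of a word. Myh10 peak 1 lay 27.1 kb before the start. It was 159 bases wide and soft-masked over 31.4%, and 14.8% of its words were multi-copy. Its AAGG repeat gave a word with 120851 copies in the genome and shared words with 124 other peaks of the list. Both peaks were intergenic in GENCODE and in RefSeq.

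Myh10 peak 3 lay 21.2 kb past the end of Myh10, in intron 5 of 8 of Ndel1, which encodes a dynein regulator. Its midpoint was 2.02 kb from the start of an Ndel1 transcript in GENCODE, and 15235 bases from the nearest start, also of Ndel1, in RefSeq. It was 175 bases wide and soft-masked over 62.9%, and 55.6% of its words were multi-copy. It held CACACACA at 27 positions, counting overlaps and both strands, a word of it had 1039301 copies in the genome, and it shared words with 249 other peaks. CACACACA was found in 13.4% of all peaks and in no other member peak. The Myh10 trio spanned 174 kb, and 619 runs of 3 neighbouring peaks (9.40%) were as tight. Its peaks lay on both sides of the 125 kb gene body, so it could not be as compact as the trio at the cardiac pair.

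Repeat content separated the 3 peaks at the cardiac pair from the 3 at Myh10. Of the list, 964 peaks (14.6%, 95% exact binomial interval 13.7 to 15.4%) had no multi-copy word. This held for 3 of 3 peaks at the cardiac pair (29.2 to 100%) and for 0 of 3 at Myh10 (0 to 70.8%), and with 3 peaks each these intervals overlap. The intervals cover counting error only and take peaks as independent, though the 3 at each locus are neighbours. Lack of multi-copy words was chosen as a feature after the sequences were seen. The interval at the cardiac pair thus cannot show an excess over the list. More than 50% of the bases were soft-masked in 64.6% of all peaks, in 0 of 3 at the cardiac pair and in 2 of 3 at Myh10. The median soft-masked share was 82.2% over all peaks, 17.9% at the cardiac pair and 62.9% at Myh10. Counting only peaks without a multi-copy word, Myh6 and Myh7 kept a peak within 5 kb, against 1.64% of all genes, 2.97% of protein-coding genes and 3.18% of those of like length, and Myh10 kept none within 50 kb. This rule, too, was set after the sequences were seen. The treatment of multi-mapping reads is not given in the sources used here, and the part of multi-copy sequence in the peaks at Myh10 was not tested.

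**Figure D2:**
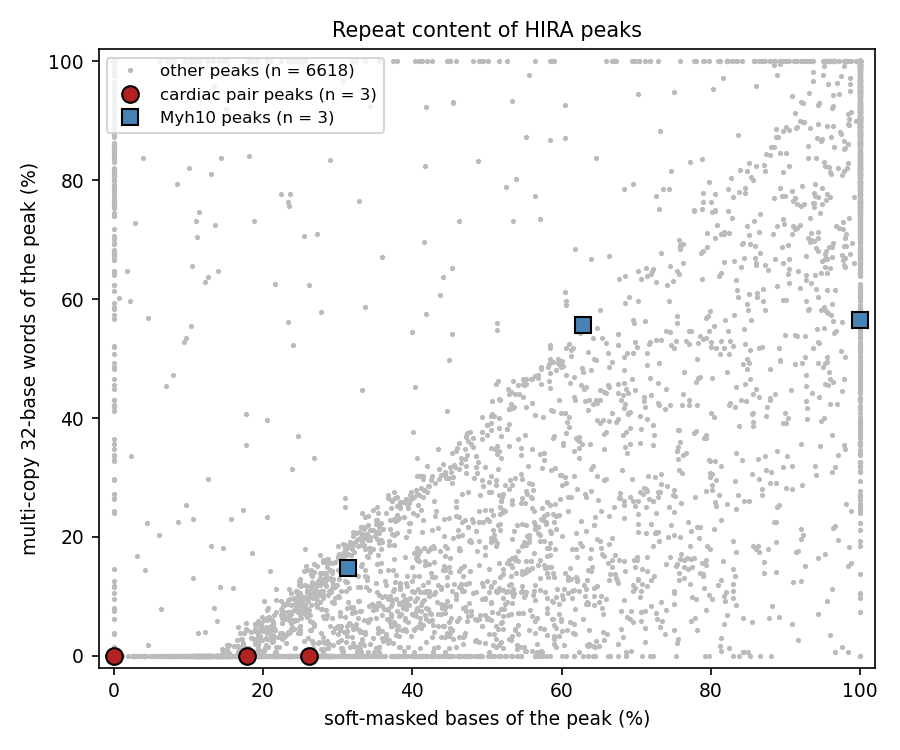
Each point is a peak, with the percent of its bases that are soft-masked on the x axis and the percent of its 32-base words that are multi-copy on the y axis. The 3 cardiac peaks lie at 0% multi-copy words and at most 26.2% soft-masked bases, and the 3 peaks at Myh10 lie between 14.8 and 56.5% multi-copy words.

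No peak lay in or within 50 kb of the 6 genes of the skeletal cluster, which runs for 293 kb from the start of Myh3 to the end of Myh13 on chromosome 11. The nearest peak to all 6 (chr11:66912941-66913463) lay in intron 1 of Pirt, a regulator of TRP channels. It was 165 kb before Myh3 (chr11:67078300-67102291), 258 kb before Myh2 (chr11:67171027-67197517), 287 kb before Myh1 (chr11:67200052-67224575), 325 kb before Myh4 (chr11:67238029-67260446), 364 kb before Myh8 (chr11:67277124-67308634) and 408 kb before Myh13 (chr11:67321658-67371586), all on the plus strand. Between 61.4 (Myh3) and 89.5% (Myh13) of protein-coding genes had a peak as close or closer. The peak in Pirt was 523 bases wide, ranked 53 in width and had no multi-copy word. It held 1 match each of GAGAGAGA, CACACACA and AGGTGT, 2 of AAGTG and 5 of GATAA. The share of peaks of that width with these words was not computed. On the far side the next peak lay in an intron of Stx8, 708 kb past the end of Myh13.

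The interval without a peak around the skeletal cluster was 1166 kb long and held 17 protein-coding genes. Of the 6603 intervals between neighbouring peaks, 390 (5.91%) were as long, and 19.5% of protein-coding genes lay in intervals as long. Myh7b (chr2:155611212-155634307, plus strand) lay in an interval of 1785 kb with 42 protein-coding genes. Only 88 intervals (1.33%) were as long, and they held 5.34% of protein-coding genes. The nearest peak to Myh7b was in intron 2 of 25 of the ubiquitin ligase gene Itch, 461 kb before its start, and 92.1% of protein-coding genes had a peak as close. On the other side the next peak was 1300 kb past its end, at Ndrg3. The median interval was 273 kb.

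**Figure D3:**
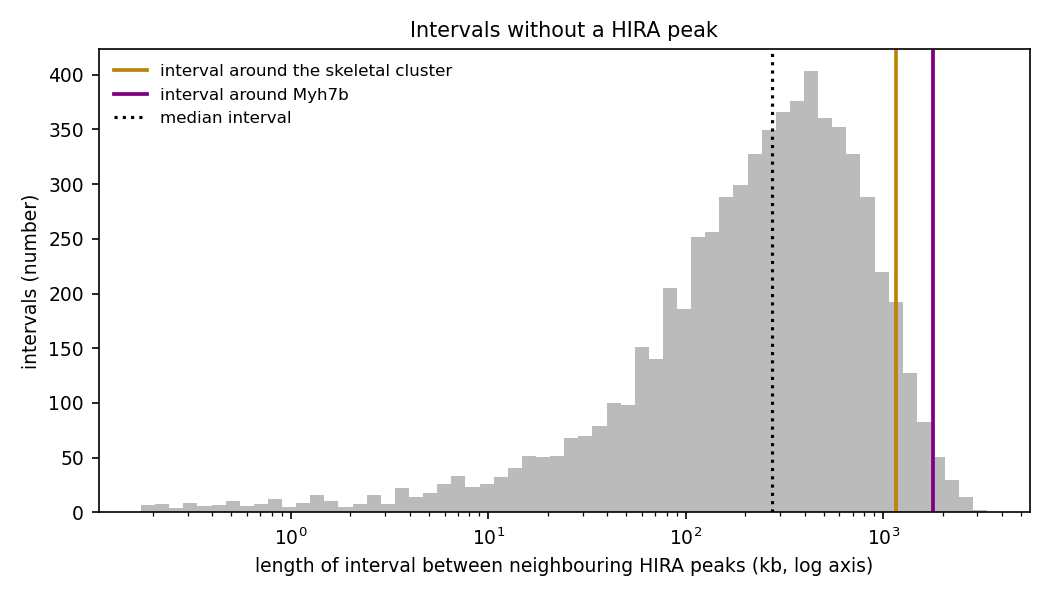
Lengths of the 6603 intervals between neighbouring HIRA peaks, in kb on a log axis, with the number of intervals on the y axis. Lines mark the 1166 kb interval around the skeletal cluster, the 1785 kb interval around Myh7b and the median of 273 kb, which both exceed.

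Peaks were sparse, at 0.250 per 100 kb over the 21 chromosomes, and this limits what an absence can show. In the 393 kb formed by the skeletal cluster with 50 kb on either side, that density gives 0.984 peaks. The count of 0 allows up to 0.763 per 100 kb by the limit of 3 counts and up to 0.938 by the exact Poisson interval, both above the genome density, so a lower density at the skeletal cluster was not detectable. In the 123 kb around Myh7b the same density gives 0.308 peaks, and a count of 0 allows up to 2.44 per 100 kb by the limit of 3 counts and up to 3.00 by the exact Poisson interval. At the cardiac pair, 3 peaks in 153 kb was 1.96 per 100 kb (95% exact Poisson interval 0.405 to 5.74), where the genome density gives 0.382 peaks. At Myh10, 3 peaks in 225 kb was 1.33 per 100 kb (0.275 to 3.90), where it gives 0.563 peaks. At 50 kb both of these intervals lay above 0.250, and they overlap each other and the exact Poisson intervals of the loci without a peak. At 100 kb both included 0.250 (0.245 to 3.47 at the cardiac pair and 0.190 to 2.70 at Myh10), and at 25 kb that of Myh10 did (0.138 to 4.13). All these intervals cover counting error only and take peaks as placed independently of each other, which was not tested.

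**Figure D4:**
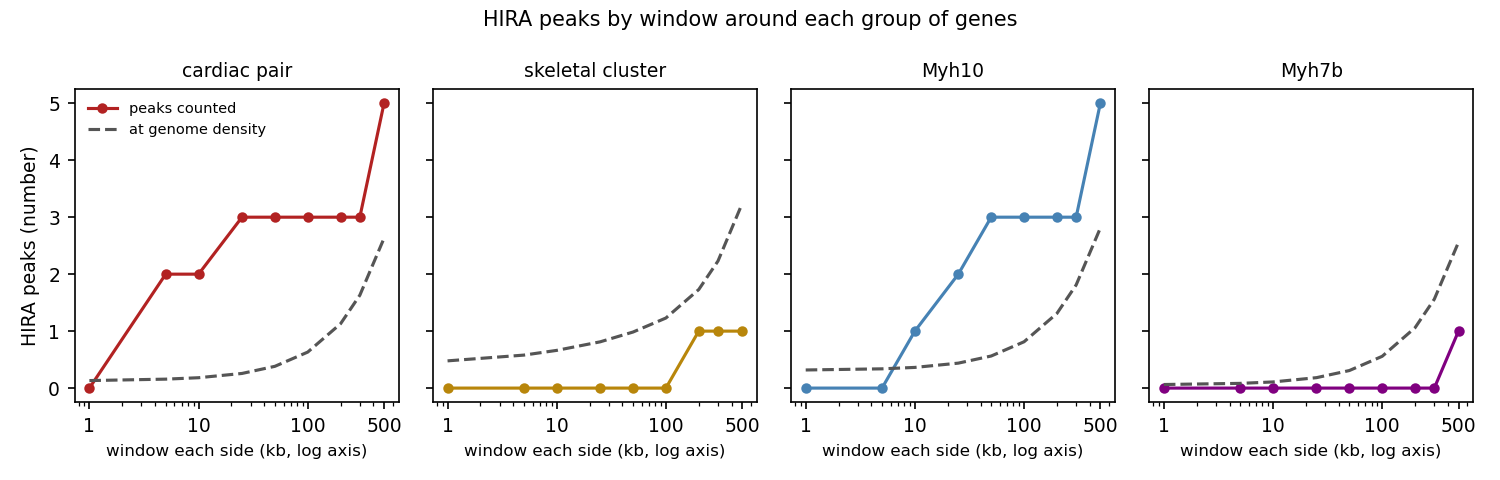
HIRA peaks counted in the gene bodies plus 1 to 500 kb on either side (x axis, log scale) for each group of genes, with the number at the genome density as a dashed line. At 5 kb the cardiac pair had 2 peaks and the other groups 0, and at 300 kb the counts were 3 at the cardiac pair, 1 at the skeletal cluster, 3 at Myh10 and 0 at Myh7b.

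The count at Myh10 changed with the window, from 0 at 1 and 5 kb to 3 at 50 kb, level with the cardiac pair. At 1 kb every group had 0. At 5 kb the counts were 2 at the cardiac pair and 0 at each of the other groups, and at 10 kb Myh10 gained 1 peak. At 100 kb they were 3 at the cardiac pair, 0 at the skeletal cluster, 3 at Myh10 and 0 at Myh7b. The distance from a gene body to its closest peak had a median of 272 kb over the 10 genes, against 127 kb for all genes, 116 kb for protein-coding genes and 112 kb for those of like length. Of the 10 distances, 6 are to the same peak in Pirt and 2 to cardiac peak 1.

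**Figure D5:**
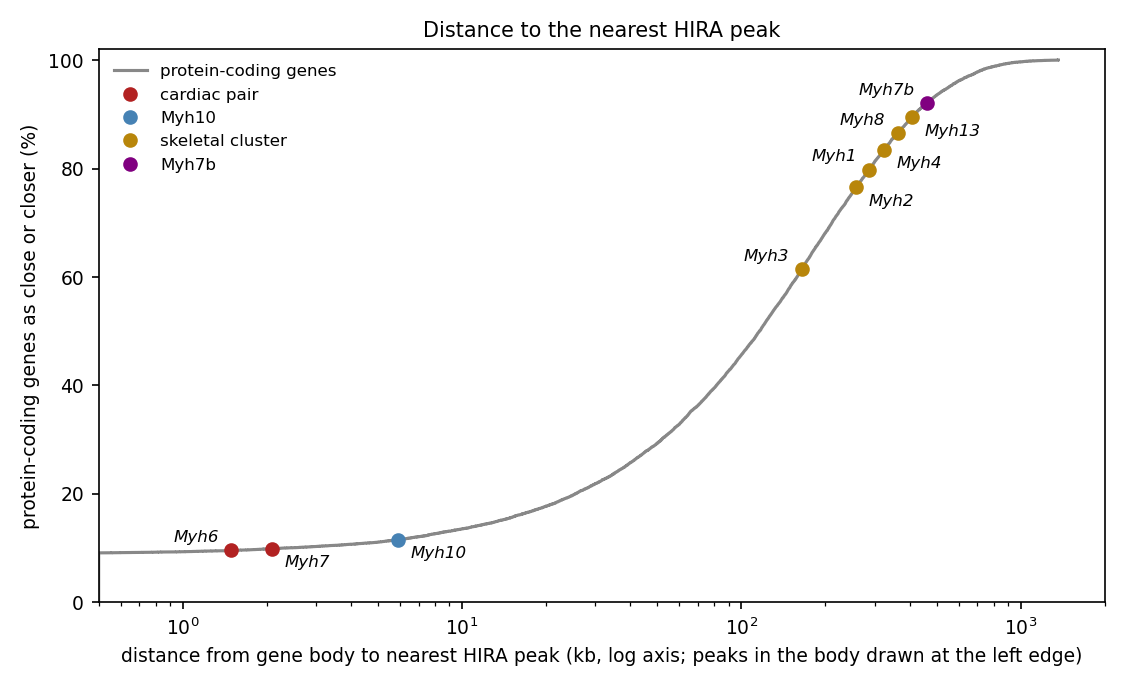
Distance from the gene body to the nearest HIRA peak in kb (x axis, log scale) against the percent of protein-coding genes as close or closer (y axis). The grey line is all 21938 protein-coding genes. Myh6, Myh7 and Myh10 lie between 1.49 and 5.90 kb, and the other 7 members between 165 and 461 kb.

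The repeat content of the windows was measured in the same way as that of the peaks. Of their bases, 22.2% were soft-masked in the 50 kb window of the cardiac pair, 18.3% at the skeletal cluster, 25.9% at Myh10 and 24.2% at Myh7b, against 36.4% of the genome. Multi-copy 32-base words made up 7.91% of the window at the cardiac pair, 6.09% at the skeletal cluster, 5.56% at Myh10 and 4.46% at Myh7b. The cardiac pair thus had the largest share of multi-copy words among the 4 windows, though at 7.91% most words there occurred once. Its 3 peaks held no multi-copy word, and a contrast with the window was not tested. Runs of GAGAGAGA numbered 40 at the cardiac pair (26.2 per 100 kb), 99 at the skeletal cluster (25.2 per 100 kb), 42 at Myh10 (18.7 per 100 kb) and 16 at Myh7b (13.0 per 100 kb). No peak lay on any of them, which restates that none of the 6 member peaks held GAGAGAGA. GC content was 49.3% at the cardiac pair, 44.0% at the skeletal cluster, 44.9% at Myh10 and 47.8% at Myh7b.

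The microRNA genes inside the members lay farther from the peaks than Mhrt. Mir208b, in Myh7, was 7.10 kb from cardiac peak 1, Mir208a, in Myh6, was 19.3 kb from it, and Mir499, in Myh7b, was 473 kb from the nearest peak.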

How the data were processed

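Chromatin of pooled E12.5 hearts was precipitated for HIRA, and the authors aligned the reads to mm10 and called peaks against the input with the MACS algorithm in Strand NGS. They deposited a list of 6624 peak positions, with no counts or scores. Per the file header, the list was made with a p-value cutoff of 0.001, an enrichment of 5 to 50 and a fragment length of 200 bases. The methods give a stricter cutoff, and which of these made the list is not known. Starts were converted to 1-based positions. Distances ran from the edge of a peak to the gene body (GENCODE M21, with RefSeq as an alternative). A 32-base word was called multi-copy where it occurred more than once on either strand of the 21 chromosomes, and lower-case bases of the reference were taken as soft-masked. Genes of like length and the counts in windows were computed in Python 3.11.15 with numpy 2.4.6, pandas 2.3.3 and scipy 1.17.1. Distance, window, word and motif searches were checked on simulated data. The members, lists and rules were chosen with earlier results of these data known. The GENCODE symbols named all 10 members.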

Additional observations from a re-analysis of the deposited data

How the results depend on the processing

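Of 70 alternatives over 12 results, 57 stayed within 1.5 times the reported value and 13 did not. Where the reported count was 0, a narrower window, fewer peaks or a longer repeat could only give 0 again. The 57 include such cases, so that number is not a measure of stability. With only the 3233 peaks wider than the median, the peaks within 50 kb of the 10 genes fell from 6 to 2, with 1 left at Myh6 and Myh7 and 1 at Myh10, and the genes with a peak within 5 kb fell from 2 to 0. With only the 964 peaks without multi-copy words, an alternative chosen after seeing the data, the 10 genes had 3 peaks, and Myh10 had 0. With a window of 5 kb the 10 genes had 2 peaks and Myh10 0. For GAGAGAGA, allowing 1 mismatch gave 1 peak in place of 0. Peaks called soft-masked numbered 2 at over 50% of bases, 1 at over 80%, 5 with any base masked and 0 within 5 kb. Peaks between genes numbered 4 in GENCODE, 2 in RefSeq and 5 with protein-coding genes alone. The skeletal cluster and Myh7b had 0 peaks under each of these alternatives, whose windows reached 100 kb, and 1 peak each at 500 kb. Of these alternatives, only the window of 100 kb and the RefSeq gene bounds could have given more than 0. No paired analysis was possible because there was 1 ChIP library. With no deposited scores, a peak could not be weighed by its strength, and no read depth was known.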

Other observations

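Among 31 other genes of the myosin apparatus, a list that holds Mhrt and the 3 microRNA genes, 8 held a HIRA peak, 10 were at most 5 kb from one and 16 at most 50 kb. Over all genes these shares were 4.53%, 6.99% and 26.0%, and over protein-coding genes 8.90%, 11.1% and 29.4%. The 10 genes within 5 kb shared 9 distinct peaks, of which 5 had no multi-copy word, against 14.6% of all peaks. Cardiac peak 1 is 1 of these 5, counted through Mhrt, and it is also the peak nearest to Mir208a and Mir208b. The list was chosen with earlier results known, its count was not tested, and the shares were not matched for gene length.

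Of the remaining heavy chain genes, 0 of 4 lay within 50 kb of a peak, against 29.4% of protein-coding genes. With 4 genes this count cannot show a lack of peaks. The nearest peak was 415 kb from Myh9, 150 kb from Myh11, 133 kb from Myh14 and 156 kb from Myh15. Of the light chain genes, 4 of 11 lay in or within 5 kb of a peak (11.1% of protein-coding genes did), and the farthest was Myl1 at 638 kb. Myl4, the embryonic and atrial essential light chain, held a peak in an intron, Myl7, the atrial regulatory light chain, lay 2.23 kb from one, and Myl12a and Myl12b overlap and held the same peak. GENCODE holds 2 entries for Myl12b, and the overlap and the peak are not given here for each entry. The 3 distinct peaks at these 4 genes had no multi-copy word. The peak nearest to Myl2, the ventricular regulatory light chain, was 5.50 kb away, and 27.7% of its words were multi-copy.

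Of 9 genes of myosin-binding proteins and kinases, Mybpc1, Mylk and Mylk3, a cardiac myosin light chain kinase, held a peak, which is 3 of 9 against 8.90% of protein-coding genes. This background was not matched for gene length. The peak in Mylk3 had no multi-copy word. Those in Mybpc1 and Mylk had multi-copy words at 22.2 and 23.6%, and both held GAGAGAGA, against 16.0% of all peaks. Of the 3 myosin chaperone genes, Unc45b and Smyd1 held a peak in an intron, with multi-copy words at 2.48% in Unc45b and 34.4% in Smyd1, and Unc45a lay 116 kb from its nearest peak. The background for a peak in the body is the same 8.90%, again not matched for gene length.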
